A study of Mus musculus with 6 samples.

Results

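Neurosteroids are steroids that nervous tissue makes or remodels itself, and the genes described here code for the steroid 5-alpha-reductases and for other enzymes and carriers of the same pathway. The genes were listed by name around Srd5a2, a 5-alpha-reductase gene picked because the auditory nerves of young mice had no reads for it while those of old mice did. The list holds 7 genes, namely Srd5a1, Srd5a2, Srd5a3, Tspo, Akr1c14, Cyp7b1 and Sts, and 6 of them matched a gene symbol among the 17607 genes of the deposited table. Sts, which codes for steroid sulfatase, was not analysed here. Because the values of Srd5a2 in the comparison of old with young nerves chose the set, they are given as a description without a test. The other 5 genes were listed for their role, with earlier results of these data known. Their tests come from a fit over all genes.

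RNA was sequenced from the auditory nerve, which runs from the cochlea to the brainstem, taken from CBA/CaJ mice, an inbred strain with good hearing until late in life. There were 3 old mice aged 2.5 years and 3 young adult mice aged 2 months, with no other genotype or treatment named in either group. The nerve was microdissected and both cochleas of 1 mouse made up 1 library, so the replicates are separate animals. The labels used here name no sex.

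Steroid hormone synthesis starts with the delivery of cholesterol to the inner mitochondrial membrane, where it is cleaved to pregnenolone, the precursor of progesterone and the sex steroids. The 5-alpha-reductases then reduce progesterone and testosterone irreversibly, and a 3-alpha-hydroxysteroid dehydrogenase turns reduced progesterone into allopregnanolone, which acts on GABA-A receptors. In peripheral nerve, Schwann cells are known to make progesterone and its reduced derivatives, which regulate genes of myelin proteins.

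The sequences at the starts of the reductase genes are shown because 1 of the 3 genes had no reads in young nerves while the others did. RefSeq promoter sequences (GRCm38.p6) matched 4 of the 7 listed genes, namely Srd5a1, Srd5a2, Srd5a3 and Akr1c14, and the 250 bases before RefSeq's start were used. For Srd5a2 the last 56 of these bases lie within the gene as the deposited table places it, and for the other 3 genes none do. The windows lie at chr13:69611464-69611713 on the minus strand for Srd5a1, chr17:74047861-74048110 on the minus strand for Srd5a2 and chr5:76140023-76140272 on the plus strand for Srd5a3. Each is written 5′ to 3′ along its gene, and capitals mark matches to GGGCGG (a GC box) or CCAAT on either strand, which did not overlap each other.
Srd5a2: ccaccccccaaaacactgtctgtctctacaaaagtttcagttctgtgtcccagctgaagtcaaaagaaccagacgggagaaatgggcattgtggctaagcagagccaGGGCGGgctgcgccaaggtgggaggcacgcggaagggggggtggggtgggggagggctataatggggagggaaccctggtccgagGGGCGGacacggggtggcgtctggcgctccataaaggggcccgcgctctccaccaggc
Srd5a1: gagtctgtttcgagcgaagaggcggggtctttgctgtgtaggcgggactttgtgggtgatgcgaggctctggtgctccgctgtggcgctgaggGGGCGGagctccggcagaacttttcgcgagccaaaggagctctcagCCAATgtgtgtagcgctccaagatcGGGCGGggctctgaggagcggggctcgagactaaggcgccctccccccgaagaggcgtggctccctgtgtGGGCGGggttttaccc
Srd5a3: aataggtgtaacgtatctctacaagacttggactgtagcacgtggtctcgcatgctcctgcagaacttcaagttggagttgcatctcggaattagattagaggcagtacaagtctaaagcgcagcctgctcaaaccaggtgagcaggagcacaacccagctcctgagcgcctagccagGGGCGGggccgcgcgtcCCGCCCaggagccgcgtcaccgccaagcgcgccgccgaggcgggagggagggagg

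The Srd5a2 window holds 2 GC boxes, against 3 in Srd5a1 and 2 in Srd5a3, and the motif occurs in 32.9% of all 27025 promoter windows of this length. Srd5a1 also has 1 CCAAT match, a motif found in 34.5% of windows, and Srd5a2 and Srd5a3 have none. The letters TATAAA (in 13.0% of windows), TGANTCA (an AP-1 site, in 6.87%) and TGTTCT (a steroid receptor half-site, in 16.2%) were searched on both strands and are not in any of these 3 windows. GC content is 63.2% in the Srd5a2 window, 64.8% in Srd5a1 and 60.8% in Srd5a3, against a median of 52% over all windows. The Srd5a2 window has 12 CpG dinucleotides, against 20 in Srd5a1 and 19 in Srd5a3, and the median window has 6. The Akr1c14 window, at chr13:4059341-4059590 on the plus strand, is unlike the reductases, with a GC content of 38.8%, 1 CpG, no GC box and 1 CCAAT match.

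The reads in the table came to between 34587979 and 40841478 per library, and 1 read was worth between 0.940 and 1.101 normalised counts. Values below are these normalised counts, that is, read counts divided by 1 size factor per library. Log2 fold changes compare old with young nerves (old minus young) after adding 1 to each normalised count, with their SE, and adjusted p-values are limma's over all 15882 genes tested. Of all genes tested, 15.9% were higher and 18.7% were lower in old nerves in limma, at an adjusted p under 0.05. Counts of higher and lower genes below stand beside these shares. The marker genes listed for Schwann cells and for spiral ganglion neurons were all in the table, 12 and 14 genes, and none was at 0 in any library. Their summed counts were 414159 to 467936 in old nerves and 420513 to 489758 in young nerves for Schwann cells, and 320841 to 458094 in old nerves against 500703 to 516097 in young nerves for neurons. Summed macrophage markers were 21285 to 33992 in old nerves and 8254 to 11313 in young nerves, and 16 of the 17 were higher in old nerves. Of 14 markers of the stria vascularis and cochlear epithelium 7 were higher and 1 was lower, with sums of 65936 to 95733 in old and 49103 to 66037 in young nerves that overlapped. The satellite glia sum lay above young nerves (119489 to 134909 in old, 85895 to 92466 in young), but its 9 markers were mixed. Of these 2 were higher (Glul and Gfap), 2 were lower (Ngfr and L1cam) and 5 did not pass, with a median log2 fold change of 0.06. Sums lay below young nerves for osteoblasts (2510 to 4128 in old, 4811 to 6237 in young, 5 of 8 markers lower). The same was so for pericytes (12587 to 14010 in old, 15008 to 18362 in young, 2 of 8 markers lower). The sums of the other 5 lists, for fibroblasts, endothelium, hair cells, melanocytes and blood, overlapped. The part of these shifts in the values below was not tested. In a bulk tissue, fewer cells of a type and less RNA per cell cannot be told apart. Over 14896 genes with a known length, the log2 fold change also fell with transcript length, with a Spearman correlation across genes of -0.38.

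Srd5a2, the reductase best known for making dihydrotestosterone in the prostate and other androgen target tissues, had reads in every old nerve and in no young nerve. The gene lies at chr17:74017706-74047916 on the minus strand (mm10). It had 63.4, 56.0 and 24.2 normalised counts in old 1, 2 and 3, against 0 in each of young 1, 2 and 3. These are 60, 59 and 25 reads in the old libraries, with exact Poisson 95% intervals of 45.8 to 77.2, 44.9 to 76.1 and 16.2 to 36.9 reads that cover counting error only. Old 1 and old 2 were alike, old 3 stood below both, and the groups did not overlap.

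At a one-sided limit of 95%, a count of 0 allows up to 3 reads in a library (3.69 on the two-sided interval used above for the old libraries), or 2.82 to 3.30 normalised counts in the young libraries. The old mean of 47.9 ± 20.8 normalised counts (SD, n = 3) was 15.8 times the mean floor. The lowest old library alone was 7.32 times the highest floor. Leaving out any 1 library gave ratios of the old mean to the mean floor of 13.3 to 19.7. These ratios do not take in the spread among old nerves. They describe the values that chose the gene and are not a test. Among old nerves the highest value was 2.62 times the lowest, a wider spread than the 1.23 to 2.01 times of the other 5 genes. Srd5a2 passed the filter on low values through its old libraries only.

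**Figure D1:**
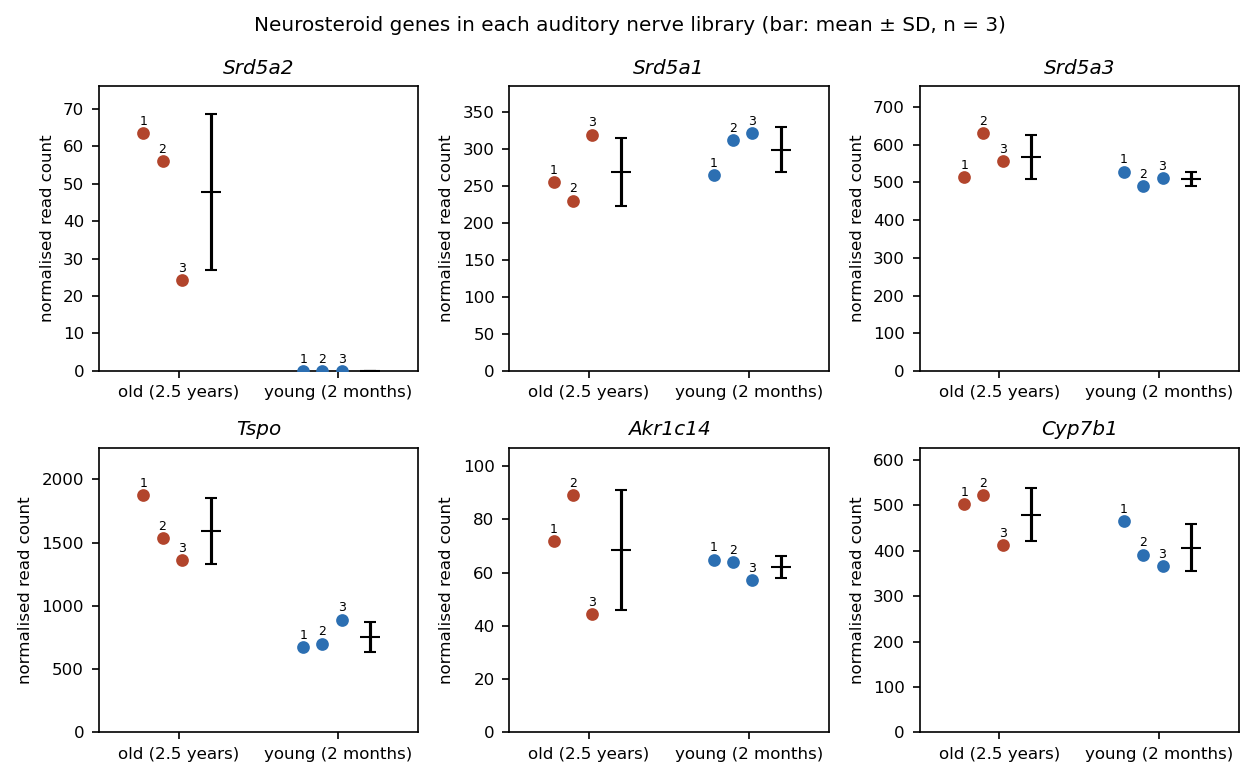
Normalised read counts (vertical axes, from 0) of the 6 genes, with old nerves (2.5 years) on the left and young nerves (2 months) on the right of each panel. Points are single mice marked with their replicate number, and bars give mean ± SD, n = 3. Srd5a2 is at 0 in all 3 young nerves, the Tspo groups do not overlap, and the groups of the other 4 genes overlap.

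The pattern of Srd5a2 was rare in the table and is described without a test. Of 17607 genes, 29 had no reads in any young library, and 15 of these (0.0852% of the table) had reads in all 3 old libraries, Srd5a2 included. The reverse pattern, reads in all young libraries and none in old, was found for 5 genes. The lowest old mean of the 15 was 3.30 normalised counts, and genes absent from the deposited table cannot enter these counts. Srd5a2 had the highest old mean of the 15. Next came Apoc4, an apolipoprotein gene, with 34.9, 24.7 and 9.67 normalised counts in the old libraries, and Prnd, which codes for the prion-like protein doppel, with 17.97, 25.6 and 8.70.

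Mgarp, which codes for a mitochondrial protein, had 8.46, 14.2 and 7.74 normalised counts in old 1, 2 and 3, and Slc5a8, a monocarboxylate transporter gene, had 7.40, 17.1 and 2.90. Over all 15 genes old 3 was the lowest of the old libraries in 8, Srd5a2 included, old 2 in 5 and old 1 in 2. Each old library, old 3 included, was the highest in 5 of the 15. Just outside the pattern was Esp18, with 66.6, 59.8 and 46.4 normalised counts in old nerves and 0.940, 0 and 1.101 in young nerves, or 2 young reads in all.

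**Figure D2:**
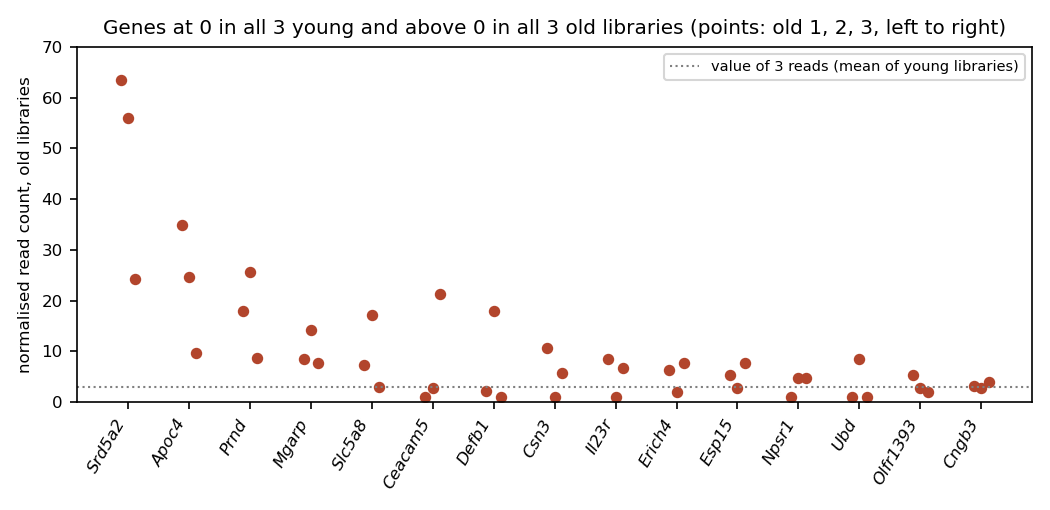
Normalised read counts in old 1, 2 and 3 (vertical axis, points from left to right) of the 15 genes with no reads in any young nerve and reads in every old nerve, and a dotted line at the mean value of 3 reads in young libraries, 3.02. Srd5a2, at 24.2 to 63.4, is the highest, and most of the other genes lie at a few counts.

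Other transcripts at the Srd5a2 locus bear on how its reads can be assigned. GENCODE places the non-coding transcript CT025731.1 at chr17:74026998-74079046 on the same strand, with exon sequence in common with Srd5a2, and its reads were not analysed here. The nearest genes in the table on each side were Xdh and Memo1. Xdh, which codes for xanthine dehydrogenase, had 1590, 978 and 1305 normalised counts in old nerves and 770, 852 and 467 in young nerves, higher in old with an adjusted p of 0.0332 in limma. Memo1 had 974.7, 1038 and 1132 in old nerves and 1113, 1098 and 1032 in young nerves, with overlapping groups and an adjusted p of 0.696 in limma.

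Srd5a1, at chr13:69573449-69611463 on the minus strand, is the reductase known as the main form of the brain. It had 256, 231 and 320 normalised counts in old 1, 2 and 3 and 265, 313 and 322 in young 1, 2 and 3. The groups overlapped, with old 1 and old 2 below every young nerve and old 3 among them. The mean was 269 ± 46.2 in old and 299.8 ± 30.3 in young nerves (SD, n = 3 each), and the log2 fold change of -0.17 ± 0.16 did not pass in limma (adjusted p = 0.449). Its 95% interval runs from 0.688-fold to 1.16-fold, so the data are compatible with no change and with a modest change in either direction.

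Srd5a3, at chr5:76140273-76155503 on the plus strand, is a member of the same family that reduces polyprenol to dolichol, the lipid carrier of N-glycosylation. It had 514, 630 and 557 normalised counts in old nerves and 528, 489.5 and 511 in young nerves. Old 2 and old 3 were above all young nerves and old 1 was not. The log2 fold change was 0.15 ± 0.11, with a fold interval of 0.934 to 1.32, and did not pass in limma (adjusted p = 0.303). Its sign turned to -0.08 once trends of transcript length and GC content were removed.

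Per kilobase of transcript, the scale on which genes can be compared, Srd5a3 gave the largest share of the summed reductase level in every library. Its share was 68.3%, 74.7% and 70.1% in old 1, 2 and 3 and 75.1%, 70.3% and 70.6% in young 1, 2 and 3. Srd5a1 gave 22.5%, 18.1% and 26.6% in old nerves and 24.9%, 29.7% and 29.4% in young nerves. Srd5a2 gave 9.18%, 7.23% and 3.31% in old nerves and none in young nerves, so it was the least abundant reductase in each library.

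Tspo was higher in old nerves and was the 1 gene of the 5 tested that passed, while 34.6% of all genes tested passed. It codes for the translocator protein of the outer mitochondrial membrane, a cholesterol-binding protein whose need in steroid synthesis is disputed and which is widely used as a marker of activated macrophages and microglia. Tspo, at chr15:83563573-83574203 on the plus strand, had 1875, 1536 and 1359.7 normalised counts in old 1, 2 and 3, against 672, 701 and 889.8 in young 1, 2 and 3. The groups did not overlap, which was so for 51.8% of all genes tested, and the lowest old nerve was 1.53 times the highest young nerve.

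The Tspo mean was 1590.4 ± 262 in old and 754 ± 118 in young nerves (SD, n = 3 each), a ratio of 2.11. The log2 fold change was 1.07 ± 0.15 with a fold interval of 1.64 to 2.70, and limma gave an adjusted p of 0.00544. Removing the trends of length and GC content left a log2 fold change of 0.83 (adjusted p = 0.0148 in limma). An exon of Tspo overlaps Mcat on the opposite strand, and the sources used here do not say whether the kit kept strand. Mcat had 627 ± 27.4 in old and 513 ± 35.1 in young nerves, and its groups did not overlap either. It did not pass in limma (adjusted p = 0.0501, unadjusted p = 0.0173), with a fold interval of 1.05 to 1.43.

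Summed macrophage markers, like Tspo, were higher in old nerves, but the order of libraries within each group differed. The macrophage sum was highest in old 2 and young 1, and Tspo in old 1 and young 3. None of the 17 was at 0, and Cx3cr1 was the marker that did not pass. Summed markers of stria vascularis and cochlear epithelium, whose groups overlapped, ranked the libraries within each group as Tspo did. The satellite glia sum was also higher in old nerves. Tspo came to 5.95%, 4.52% and 6.39% of the summed macrophage marker counts in old 1, 2 and 3, and to 5.94%, 8.49% and 10.1% in young 1, 2 and 3. Relative to that sum the Tspo groups overlapped, and the old mean of 5.62% ± 0.978 was below the young mean of 8.16% ± 2.08 (SD, n = 3 each). The part of macrophages or of other cell types in the rise of Tspo was not tested.

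**Figure D3:**
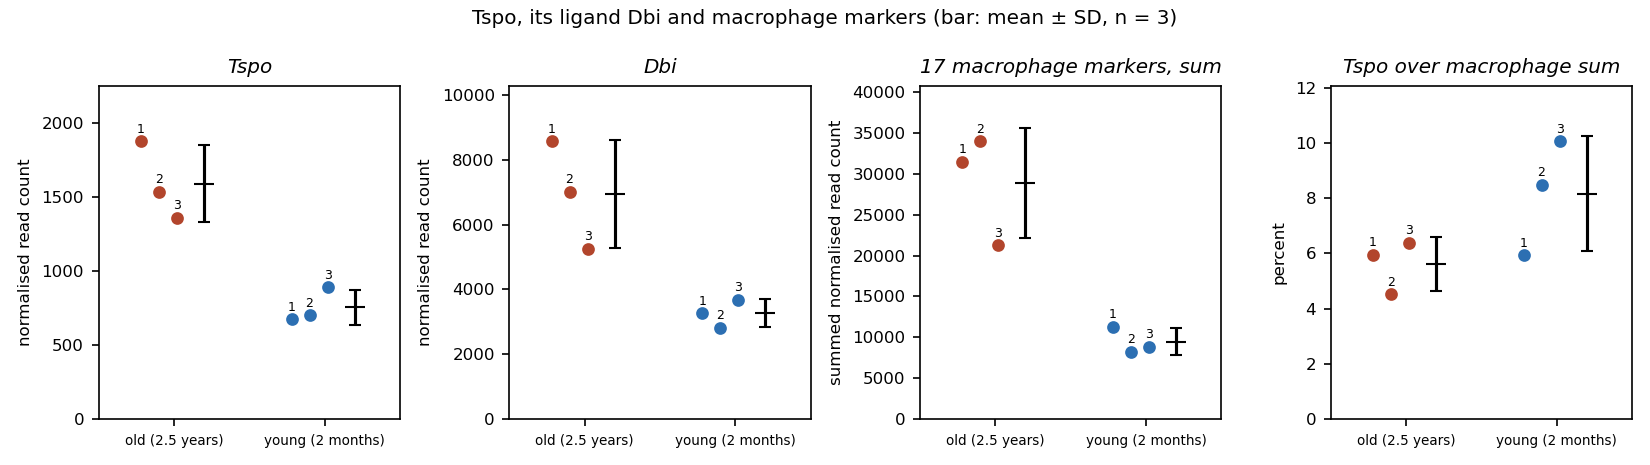
Normalised read counts of Tspo, of Dbi and of 17 macrophage markers summed, and Tspo as a percentage of that sum (vertical axes, from 0), with old nerves left and young nerves right, 1 point per mouse and bars at mean ± SD, n = 3. The old nerves lie above the young nerves in the first 3 panels, and the groups overlap in the last, at 4.52% to 6.39% in old and 5.94% to 10.1% in young nerves.

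Akr1c14, at chr13:4059591-4090422 on the plus strand, codes for the 3-alpha-hydroxysteroid dehydrogenase that acts after the reductases to make allopregnanolone. It had 71.9, 89.2 and 44.5 normalised counts in old nerves and 64.9, 63.9 and 57.3 in young nerves. The young nerves lay within the range of the old ones. The log2 fold change of 0.09 ± 0.28 did not pass in limma (adjusted p = 0.834), its fold interval of 0.670 to 1.69 is the widest of the 5 genes, and the sign turned to -0.13 without old 2. The gene has close paralogs, and the pseudogene Gm18857 overlaps it in the annotation, so reads may have been split between copies.

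Cyp7b1, at chr3:18071950-18243338 on the minus strand, codes for a hydroxylase that inactivates oxysterols and steroids such as dehydroepiandrosterone. It had 502, 523 and 413 normalised counts in old nerves and 464, 391 and 366 in young nerves. Old 1 and old 2 were above every young nerve, old 3 was below young 1, and the groups overlapped. The mean was 479 ± 58.4 in old and 407 ± 51.3 in young nerves (SD, n = 3 each). The log2 fold change of 0.23 ± 0.14 did not pass in limma (adjusted p = 0.225), its fold interval was 0.938 to 1.48, and the sign turned to -0.09 with the trends of length and GC content removed.

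In order of level per kilobase, Tspo came first with 1900.2 ± 313 normalised counts per kb in old and 901 ± 141 in young nerves (SD, n = 3 each). Srd5a3 followed with 325 ± 33.6 in old and 292 ± 11.1 in young nerves, and Cyp7b1 with 221 ± 27.0 in old and 188 ± 23.7 in young nerves. Srd5a1 had 102 ± 17.5 in old and 113 ± 11.5 in young nerves. Akr1c14, with 21.5 ± 7.08 in old and 19.5 ± 1.30 in young nerves, and Srd5a2, with 29.8 ± 13.0 in old and 0 in young nerves, were the lowest.

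Neighbours in this order did not overlap in either group, except that Srd5a2 at 15.1 to 39.5 and Akr1c14 at 13.98 to 28.02 overlapped in old nerves. Tspo lay above 92.6% of all genes with a length in old and above 80.4% in young nerves. Srd5a2 in old nerves lay above 19.3% of them, and Akr1c14 above 16.8% in old and 17.1% in young nerves.

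**Figure D4:**
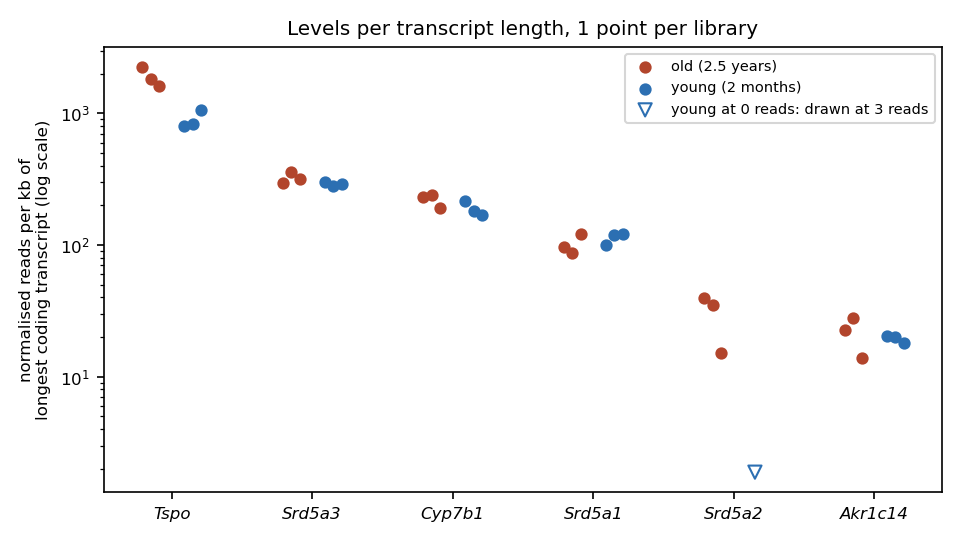
Normalised reads per kilobase of the longest coding transcript (vertical axis, log scale) of the 6 genes, 1 point per library, with old nerves in red left of young nerves in blue. Tspo is highest, with means of 1900.2 in old and 901 in young nerves, and the open triangle stands for Srd5a2 in young nerves, at 0 reads and drawn at the level of 3 reads.

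The rest of the pathway was described from 10 lists of genes grouped by role. Beyond the genes above the lists name 145 genes, of which 117 were in the table and 104 were tested. Of these, 22 were higher in old nerves, 10 were lower and 72 did not pass, so 30.8% were called, against 34.6% over all genes. By direction the shares over all genes were 15.9% higher and 18.7% lower, and the counts of each list below are small. Their median log2 fold change was 0.09.

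Among 16 tested genes of cholesterol delivery, Tspo included, 4 were higher in old nerves and 3 were lower, with a median log2 fold change of 0.08. Dbi, which codes for the acyl-CoA-binding protein that is also a ligand of Tspo, had 6951 ± 1656 normalised counts in old and 3258 ± 432 in young nerves, a log2 fold change of 1.07 ± 0.18 (adjusted p = 0.00740 in limma). Npc2, a lysosomal cholesterol carrier, had 7255 ± 835 in old and 4632 ± 216 in young nerves (adjusted p = 0.00564 in limma). Scarb1, the receptor for high-density lipoprotein, fell by 0.73 on the log2 scale, with 642 ± 67.3 in old and 1068 ± 133 in young nerves (adjusted p = 0.00765 in limma).

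Star, the steroidogenic acute regulatory protein that limits cholesterol transfer in the adrenal and gonads, had 403 ± 45.5 in old and 407 ± 32.2 in young nerves and overlapping groups (adjusted p = 0.930 in limma). Fdx1, a ferredoxin that feeds electrons to the side-chain cleavage enzyme, was higher in old nerves, while Npc1, the lysosomal partner of Npc2, and Acbd3, a partner of Tspo, were lower. Without young 2 these 3 calls were lost: Npc1 then had an adjusted p of 0.106 in limma and Acbd3 one of 0.0622. The highest for Fdx1 was 0.0833, without young 1. With the trends of length and GC content removed the log2 fold change of Dbi was 0.54.

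Of 8 tested enzymes of steroid synthesis, 3 were higher in old nerves and the others did not pass, 1 of them lower at an unadjusted p under 0.05. The microsomal electron carriers led, with Cyb5r3, cytochrome b5 reductase, at 7911 ± 206 normalised counts in old and 5664 ± 276 in young nerves (log2 fold change 0.48 ± 0.06, adjusted p = 0.00509 in limma). Cyb5a, cytochrome b5, had 2946 ± 377 in old and 1864 ± 207 in young nerves (0.66 ± 0.12, adjusted p = 0.00813 in limma). Hsd3b7, which acts on bile acid precursors, had 812 ± 87.5 in old and 623 ± 13.1 in young nerves (adjusted p = 0.0274 in limma).

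Cyb5r3 and Cyb5a act in other reactions besides hormone synthesis, and the bile acid role of Hsd3b7 lies outside hormone synthesis. Cyp11a1, the side-chain cleavage enzyme that makes pregnenolone, had 50.7, 85.4 and 59.0 in old nerves and 131, 55.0 and 87.0 in young nerves, with overlapping groups (adjusted p = 0.379 in limma). Without length and GC trends the log2 fold change of Cyb5a was 0.14 (adjusted p = 0.336 in limma). The call of Hsd3b7 was lost in 5 of 6 fits that each left out 1 library, with an adjusted p up to 0.0868 without young 3 in limma.

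None of the 4 tested genes of the reductase family passed in limma, edgeR or DESeq2, and none had an unadjusted p under 0.05 in limma. They were Srd5a1, Srd5a3, Tecr and Tecrl, the last pair acting on fatty acyl chains, with a median log2 fold change of -0.04. Among 4 tested 3-alpha and 20-alpha dehydrogenases, Akr1c14 included, Rdh5 was lower, with 436 ± 35.7 in old and 555 ± 42.1 in young nerves (adjusted p = 0.0444 in limma). Rdh5 is a retinol dehydrogenase that also oxidises steroids, and its call was lost when any 1 library was left out, with an adjusted p up to 0.139 without young 3.

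Of 8 tested 17-beta-hydroxysteroid dehydrogenases, which interconvert active and inactive sex steroids, 2 were higher in old nerves. Hsd17b10, a mitochondrial enzyme that also takes part in RNA processing, had 1701 ± 136 in old and 1209 ± 57.3 in young nerves (adjusted p = 0.00756 in limma). Its log2 fold change of 0.49 became 0.06 with the trends of length and GC content removed. Hsd17b11, a lipid droplet enzyme, had 7326 ± 837 in old and 5642 ± 439 in young nerves (adjusted p = 0.0296 in limma), and the call was lost in 5 of 6 fits without 1 library, with an adjusted p up to 0.0923 without young 1.

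**Figure D5:**
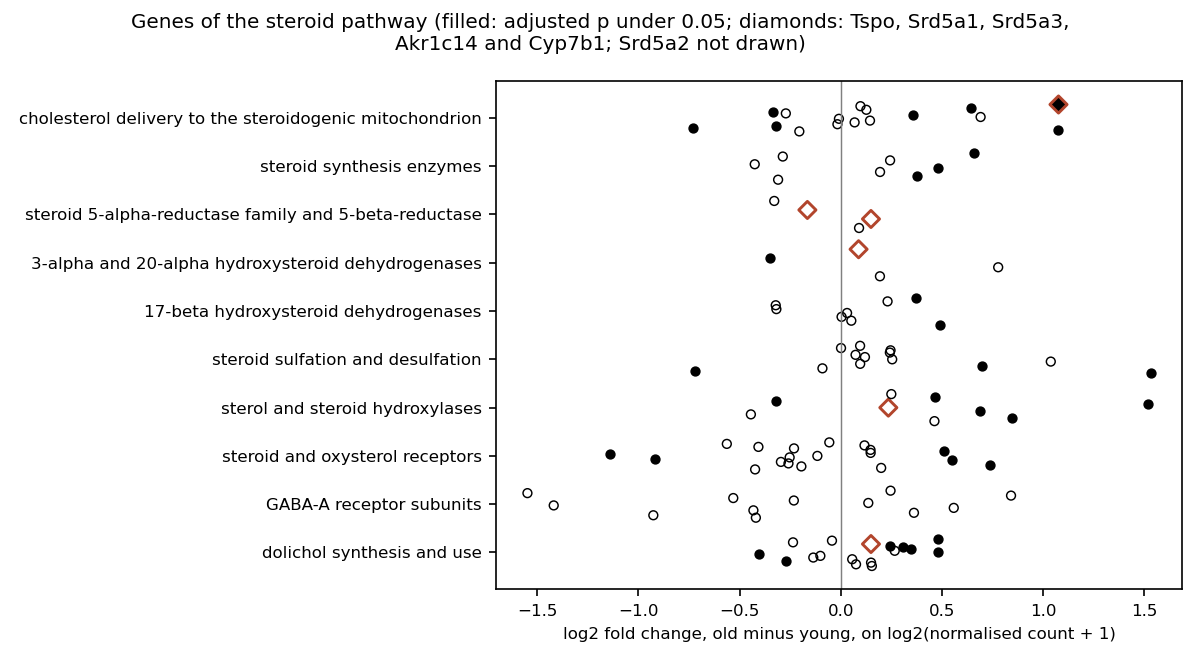
Log2 fold change, old minus young, on log2(normalised count + 1) (horizontal axis) of each tested gene in the 10 role lists (vertical axis), filled where limma's adjusted p was under 0.05, with diamonds for Tspo, Srd5a1, Srd5a3, Akr1c14 and Cyp7b1. Filled points lie on both sides of 0 in the lists of cholesterol delivery, sulfation, hydroxylases, receptors and dolichol, and no GABA-A subunit is filled.

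Of 13 tested genes of steroid sulfation and desulfation, 2 were higher in old nerves and 1 was lower. Papss2, which makes the sulfate donor that sulfotransferases use, had 2188 ± 828 in old and 718 ± 105 in young nerves, a ratio of 3.05 (log2 fold change 1.53 ± 0.29, adjusted p = 0.00939 in limma). Sult1a1, a phenol sulfotransferase, had 3525 ± 549 in old and 2173 ± 316 in young nerves (adjusted p = 0.0126 in limma), and its call was lost with the trends of length and GC content removed. Sult4a1, a brain sulfotransferase with no settled substrate, had 8173 ± 1993 in old and 13216 ± 727 in young nerves (adjusted p = 0.0176 in limma), and leaving out any 1 young library ended that call (adjusted p up to 0.0547 without young 2).

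Among 9 tested sterol and steroid hydroxylases, Cyp7b1 included, 4 were higher in old nerves and 1 was lower, with a median log2 fold change of 0.46. Cyp27a1, the mitochondrial sterol 27-hydroxylase, had 1573 ± 128 normalised counts in old and 873 ± 48.7 in young nerves (log2 fold change 0.85 ± 0.09, adjusted p = 0.00399 in limma). Ch25h, which makes 25-hydroxycholesterol and is induced by interferon in macrophages, had 118.4, 120.5 and 120.9 in old nerves and 38.5, 39.3 and 46.2 in young nerves. The groups were far apart and the old nerves nearly equal, and the ratio was 2.90 (1.52 ± 0.18, adjusted p = 0.00464 in limma).

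Both enzymes make oxysterols that are substrates of Cyp7b1. Cyp2d22, a drug and steroid hydroxylase, had 2912 ± 535 in old and 1794 ± 233 in young nerves (adjusted p = 0.0147 in limma, and 0.0512 without young 3). Cyp1b1, an estrogen hydroxylase, was higher in old nerves and Cyp51, a demethylase of cholesterol synthesis, was lower. The call of Cyp51 was lost when any 1 library was left out (adjusted p up to 0.116 without young 1 in limma), and that of Cyp1b1 in 5 of 6 such fits (up to 0.121 without young 1). The part of macrophages in the rises of Ch25h and Cyp27a1 was not tested.

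Of 19 tested steroid and oxysterol receptors, 3 were higher in old nerves and 2 were lower. Pgr, the nuclear progesterone receptor, fell by 0.92 on the log2 scale, with 272 ± 69.5 in old and 506 ± 57.3 in young nerves (adjusted p = 0.0132 in limma).

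Paqr9, a membrane progestin receptor, had 453 ± 115 in old and 979 ± 34.5 in young nerves (log2 fold change -1.14 ± 0.18, adjusted p = 0.00657 in limma). Paqr5, another receptor of that family, had 546 ± 69.0 in old and 382 ± 42.4 in young nerves (adjusted p = 0.0262 in limma, up to 0.0875 without young 3). Pgrmc1, a heme-binding membrane protein of progesterone signalling, had 15827 ± 3098 in old and 10667 ± 545 in young nerves (adjusted p = 0.0262 in limma, up to 0.0916 without young 2). The summed markers of spiral ganglion neurons were lower in old nerves, and their part in the falls of Pgr and Paqr9 was not tested.

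None of the 12 tested GABA-A receptor subunits passed in limma or edgeR, 2 were lower at an unadjusted p under 0.05 in limma, and DESeq2 and the FDR of the authors' deposited table each called 1 lower. In limma 2 were called lower without old 2, 1 without old 3 and 1 without both young 1 and old 2. Gabra3, the subunit lower in DESeq2, had 27.5, 57.9 and 21.3 normalised counts in old nerves and 197, 70.8 and 65.0 in young nerves (adjusted p = 0.0570 in limma). Young 1 had the highest value of that subunit, and the median log2 fold change of the list, -0.33 over all libraries, was 0.24 without young 1 and 0.12 without old 1.

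Of 17 tested genes that make or use dolichol, the product of Srd5a3, 5 were higher in old nerves and 2 were lower, with a median log2 fold change of 0.15. Alg1, a mannosyltransferase, had 1711 ± 32.1 in old and 1381 ± 35.1 in young nerves (adjusted p = 0.0113 in limma). Dpm3 and Dpm1, subunits of dolichol phosphate mannose synthase, each had a log2 fold change of 0.48 (adjusted p = 0.0131 and 0.0222 in limma). Without young 2 the adjusted p was 0.0530 for Alg1 and 0.0544 for Dpm3, and without young 3 it was 0.0803 for Dpm1.

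The other calls of that list were Alg5 and Mpdu1, higher in old nerves, and Dhdds, a polyprenol synthase subunit, and Dolk, the dolichol kinase, lower in old nerves. Each was lost in 5 of 6 fits without 1 library, with an adjusted p up to 0.109 for Alg5 without young 3, 0.105 for Mpdu1 without young 2, 0.0965 for Dhdds without young 2 and 0.136 for Dolk without young 1 in limma. Alg5 had a log2 fold change of 0.35 that became -0.04 with the trends of length and GC content removed.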

How the data were processed

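RNA from auditory nerve of 3 old and 3 young mice was sequenced from libraries made with a TruSeq kit, per the labels' protocols. TopHat2, Partek and DESeq2 with build mm10 are named, per the submitters' processing notes, with settings not given in the sources used here. Each of the 6 deposited columns is a signal the authors made by dividing read counts by 1 size factor per library. Within a tolerance of 0.1, 99.931% to 99.971% of values above 0 gave whole reads. The deposited p-value, FDR and signed fold score come from the authors, per the file headers, and the FDR served as an alternative.

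The main test was limma (3.58.1) with trended variances, two-sided, on values with 1 added before taking log2. P-values were adjusted by Benjamini-Hochberg with calls under 0.05, over the 15882 genes that edgeR's filterByExpr kept (minimum count 10, minimum total 15). The pseudocount understates changes of low genes. Run on whole reads, edgeR (4.0.16) made 5418 calls and DESeq2 (1.42.0) made 6210, against 5493 in limma. An exact permutation test of 3 against 3 cannot go below p = 0.1. The fits were tested on simulated counts.

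The genes and lists were chosen with earlier results of these data known. From each list at most the 3 called genes with the smallest p were named, together with the 5 genes of the Srd5a2 pattern with the highest old means. Star, Cyp11a1, Pgrmc1, Tecr, Tecrl, Esp18, Gabra3, Hsd17b2 and the remaining calls behind small counts were named after their values were seen. Some list genes are not reported here. Levels per kb used the longest coding transcript in GENCODE M21 (GRCm38). Length and GC trends were removed with mgcv (1.9.3) smooths. Table positions count from 1. Alternatives were other tools, scalings, filters, pseudocounts, a replicate block and each library left out, and the fit without young 1 and old 2 was chosen after seeing the data.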

Additional observations from a re-analysis of the deposited data

How the results depend on the processing

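The call of Tspo and the absence of a call for Srd5a1, Srd5a3, Akr1c14 and Cyp7b1 held in all 18 alternatives, with the log2 fold change of Tspo at 0.83 to 1.198 and its adjusted p at 1.25e-08 to 0.0385. Of the other 32 called pathway genes, Npc2, Scarb1, Cyb5r3, Papss2, Cyp27a1, Ch25h and Paqr9 passed in all 18. Over all genes 5493 were called (2524 higher, 2969 lower). With the replicate block there were 2711 (1078 higher, 1633 lower), with length and GC trends removed 3409 (1520 and 1889), and without young 1 and old 2, chosen after seeing the data, 1776 (831 and 945). Leaving out 1 library gave 2589 to 6117 (1159 to 2757 higher, 1430 to 3360 lower). Upper-quartile scaling made 59.5% of calls higher, against 45.9%, with the median of all genes shifted to 0.08.

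Of the pathway genes other than those of the set, 22 were higher and 10 lower. The replicate block gave 10 and 4, trends removed gave 13 higher, the fit without young 1 and old 2 gave 7 and 3, and leaving out 1 library gave 12 to 23 higher and 3 to 11 lower. Same-numbered old and young libraries had deviations correlated at -0.29, -0.41 and -0.05, and no library correlated best with its own number. With 3 libraries per group these correlations cannot settle whether replicate numbers mark a shared batch. Alg5 turned from 0.35 to -0.039 on the log2 scale without the trends of length and GC content, and the cause was not tested. With the median length of coding transcripts in place of the longest, levels per kb were 457 in old and 411 in young nerves for Srd5a3, 2292 and 1087 for Tspo, and 22.1 for Akr1c14 in young nerves. Depth leaves room for up to 3 reads of Srd5a2 in a young library, at a one-sided limit of 95%.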

Other observations

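Hsd17b2, which codes for a dehydrogenase that inactivates testosterone and estradiol, was too low to be tested. It had 5.29, 14.2 and 6.77 normalised counts in old nerves and 0.940, 0 and 0 in young nerves. It was named after its values were seen.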
